A study of Oryza sativa with 6 samples.

Results

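The rice array used here carries probes to microRNA hairpins, and 75 of its 42418 measured probes belong to the microRNA families miR160, miR164, miR167, miR390 and miR393, which act on auxin signalling or on organ boundaries downstream of it. They were chosen by probe name alone: every probe of these 5 families was kept, whatever its signal. The families themselves were taken up with earlier results of the same genotype comparison known, so counts of called members are descriptions of these arrays and support nothing further. The 75 probes cover 25 hairpins with 3 probes each, named 5′, 3′ and mature, and each probe is printed as 2 spots. There were 18 probes of miR160, 18 of miR164, 30 of miR167, 3 of miR390 and 6 of miR393. The chromosome of each hairpin is part of its probe name; positions within it were not used here. The array carries 435 further probes of other rice microRNAs.

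The tested plants were OsCAld5H1-knockout rice made with CRISPR/Cas9, line a-9-2, T2 generation, represented by 3 biological replicates. They were set against 3 biological replicates of wild-type rice. All plants were of the cultivar Nipponbare and grew at 27 °C with 12 h of light a day, and RNA came from the mid-section of the second-highest internode at heading. OsCAld5H1 encodes coniferaldehyde 5-hydroxylase, an enzyme of the syringyl branch of lignin synthesis. A single edited line stands for the knockout, so effects of the line and of the edited gene cannot be told apart.

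In plants, miR160 and miR167 guide the cleavage of transcripts of separate groups of AUXIN RESPONSE FACTOR (ARF) genes, which encode the transcription factors that read out auxin. miR393 acts one step earlier, on transcripts of the TIR1 and AFB F-box auxin receptors. miR390 sets off the production of TAS3 trans-acting small RNAs, which in turn act on a further group of ARF transcripts, while miR164 acts on NAC transcription factors that shape organ boundaries. A microRNA is cut from the stem of a longer hairpin transcript, which is itself made like a messenger RNA.

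Total RNA was purified on RNeasy columns and 0.1 µg of it was labelled with Cy3 by a kit made for messenger RNA. Such columns and kits are not designed to recover mature microRNAs. The mature probes are therefore described as probes, and which RNA gave their signal was not tested. Values below are log2 of the processed spot signal minus the 75th percentile of the same array, so 0 is the signal that 75% of the gene spots of an array do not exceed. Differences are knockout minus wild-type, and a probe is said to have risen or fallen where limma's adjusted p, over all 32134 tested probes, was under 0.05.

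Spots well above background made up 73.5% to 77.4% of gene spots per array, and none was saturated. Precision is limited throughout by there being 3 arrays per genotype. All 3 knockout arrays lay on one slide and all 3 wild-type arrays on another. In every difference below, genotype and slide cannot be told apart. The median SD of the tested members was 0.269 in knockout internodes and 0.154 in wild-type internodes. The cellulose synthase genes of lignifying stems, CESA4, CESA7 and CESA9, were well above background with all 6 of their probes on all arrays. The root gene RCc3 was above background on no array. The silicon transporter gene LSI1, also listed as a root marker, was bright on all arrays and fell, with values of -2.46, -1.73 and -1.58 in knockout internodes and -0.27, -0.27 and 0.19 in wild-type internodes (difference -1.81 ± 0.27 SE, limma adjusted p = 0.0267). Without any 1 wild-type array or knockout replicate 2 its adjusted p was 0.0814 to 0.113. The 10 probes of the green-tissue genes RBCS and LHCB were bright on all arrays and none was called. Their differences ran from -0.41 to 1.58, and the RBCS probe at 1.58 did not overlap between genotypes (limma adjusted p = 0.112). Of 3 probes of the anther gene C6, 1 was bright on knockout replicate 1 only, and the others on no array. The part of tissue composition in the results was not tested. In these bulk samples fewer cells of a type and less RNA per cell cannot be told apart. The OsCAld5H1 probe itself had -4.00, -1.78 and -1.23 in knockout internodes and -0.54, -0.52 and -0.05 in wild-type internodes, a difference of -1.97 ± 0.70 (SE; limma adjusted p = 0.205). Knockout replicate 1 stood apart there and in CESA9, which had -3.09, -1.51 and -1.30 in knockout internodes and -1.69, -1.52 and -1.57 in wild-type internodes. It was also the highest knockout array in all the miR160 probes that rose, and without it these 6 differences were 0.91 to 1.45 and all still passed the threshold. Knockout replicate 3 stood apart instead in the CESA4 probe of cDNA AK105078. That probe had 1.51, 2.32 and -0.30 in knockout internodes and 1.97, 1.83 and 2.29 in wild-type internodes (difference -0.85 ± 0.64 SE, limma adjusted p = 0.519).

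Most of the hairpin probes gave no signal above background in this internode tissue. Of the 75 probes, 31 were well above background on at least 1 array and 24 on all 6, while 44 were above it on none. A probe was tested where it was bright on all 3 arrays of at least 1 genotype, which held for 28 members, or 37.3%. Over the other rice microRNA probes this share was 19.3% (84 of 435), and over all probes it was 75.8%. By array, 27, 29 and 31 members were bright in the knockout replicates and 26, 25 and 27 in the wild-type replicates. The gap lay largely in the miR160 5′ probes, of which 5, 6 and 6 were bright in the knockout replicates and 3 in each wild-type replicate.

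The families differed widely in how many probes could be seen. For miR160, 13 of 18 probes were tested (72.2%), for miR164 8 of 18 (44.4%), for miR393 3 of 6 (50%) and for miR167 4 of 30 (13.3%), and none of the 3 miR390 probes was bright on any array. By probe type, 13 of 25 5′ probes (52%), 9 of 25 3′ probes (36%) and 6 of 25 mature probes (24%) were tested. All 6 of those mature probes belong to miR160. No mature probe of miR164, miR167, miR390 or miR393 was bright on any array, including those of hairpins whose 5′ and 3′ probes were both bright. Of the other rice microRNAs, 19 of 145 mature probes were tested (13.1%).

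Across the 28 tested members, 7 rose, 2 fell and 19 were not called, while 21 had an unadjusted p under 0.05. Over all tested probes 3.16% were called, 1.87% rose and 1.29% fell, and 19.1% had an unadjusted p under 0.05. All 9 calls were among the 24 members bright on all 6 arrays. The genotypes' arrays did not overlap for 21 members, 15 of them higher and 6 lower in knockout internodes, against 27.0% of all tested probes. The higher ones include the 5′ probes of miR160c, miR160e and miR164b. These passed the brightness filter through the knockout arrays alone, which favours a higher knockout value. Of the 24 members bright on all 6 arrays, 19 had an unadjusted p under 0.05. Over the 24 members bright on all arrays the median difference was 0.55, with a range from -1.38 to 1.71, and the median of all tested probes was 0.00. Of the 9 calls, 8 ended when any 1 wild-type array or knockout replicate 2 was left out. The ninth, the 3′ probe of miR167h, ended without wild-type replicate 1 or 3. Without wild-type replicates 1, 2 and 3 in turn 0, 1 and 0 members were called, and without knockout replicates 1, 2 and 3 there were 11, 1 and 10. No called member changed direction in any of these fits.

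Of the 11 miR160 probes bright on all 6 arrays 6 rose, against 1.87% of all tested probes. All 11 differences were above 0, with a median of 1.06, and 16257 of the 32134 tested probes were also higher in knockout internodes. The smallest of the 11, at 0.08 for the miR160b 3′ probe, changed sign under some alternatives. The largest was the 5′ probe of miR160f, a hairpin on chromosome 8. It had values of -0.60, -1.32 and -1.44 in knockout internodes and -3.02, -2.67 and -2.80 in wild-type internodes. All 3 knockout arrays lay above all 3 wild-type arrays, and knockout replicate 1 was the highest. The difference was 1.71 ± 0.24 (SE; 95% interval 1.12 to 2.30), a 3.27-fold rise, with a limma adjusted p of 0.0249.

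The mature probes of miR160 gave closely similar differences. The miR160a mature probe (chromosome 2) had -4.00, -4.48 and -4.52 in knockout internodes and -5.61, -5.48 and -5.42 in wild-type internodes. The miR160b mature probe (chromosome 6) had -4.12, -4.56 and -4.60 in knockout internodes and -5.41, -5.52 and -5.54 in wild-type internodes. In both, the genotypes did not overlap and knockout replicate 1 was the highest array. miR160a rose by 1.17 ± 0.17 (2.25-fold, limma adjusted p = 0.0255) and miR160b by 1.06 ± 0.16 (2.09-fold, limma adjusted p = 0.0267).

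The next 3 mature probes rose to a like extent. The miR160c mature probe (chromosome 8) had -4.13, -4.57 and -4.65 in knockout internodes and -5.98, -5.58 and -5.56 in wild-type internodes, a rise of 1.26 ± 0.19 (2.39-fold, limma adjusted p = 0.0293). The miR160d mature probe (chromosome 3) had -4.16, -4.65 and -4.62 in knockout internodes and -5.96, -5.53 and -5.56 in wild-type internodes, a rise of 1.21 ± 0.19 (2.31-fold, limma adjusted p = 0.0323). The miR160e mature probe (chromosome 7) had -2.87, -3.08 and -3.23 in knockout internodes and -4.29, -4.19 and -3.91 in wild-type internodes, a rise of 1.07 ± 0.16 (2.10-fold, limma adjusted p = 0.0261). Every knockout array stood above every wild-type array for all 3. The sixth mature probe, miR160f, had -4.41, -4.91 and -5.05 in knockout internodes and -5.54, -5.71 and -6.06 in wild-type internodes. Its genotypes did not overlap either, but its difference of 0.98 ± 0.22 missed the threshold (limma adjusted p = 0.0802). Its 2 spots differed by up to 1.94 on wild-type replicate 1, against a median gap of 0.14 between duplicate spots of the tested members.

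Members of a microRNA family share all or nearly all of their mature sequence. Mature probes of miR160 can therefore cross-hybridise, and the 6 differences are not 6 independent measurements. When the background was corrected with normexp and arrays were quantile-normalised, the differences of the miR160a, miR160b and miR160c mature probes shrank to 0.50, 0.49 and 0.53 and missed the threshold (limma adjusted p = 0.0697, 0.0582 and 0.0580).

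None of the other miR160 5′ and 3′ probes was called. The 5′ probes of miR160a and miR160b differed by 0.65 ± 0.14 and 0.67 ± 0.15 (limma adjusted p = 0.0709 and 0.0767), with no overlap between genotypes. The 5′ probes of miR160c and miR160e were well above background on all 3 knockout arrays and on no wild-type array. Their knockout means were -6.25 and -6.63, against wild-type means of -7.10 and -7.12, so the estimates were 1.80-fold and 1.41-fold higher in knockout internodes. The miR160c difference was 0.85 ± 0.20 (95% interval 0.36 to 1.33, limma adjusted p = 0.0909). For miR160e it was 0.50 ± 0.11 (95% interval 0.22 to 0.77, limma adjusted p = 0.0865). These probes passed the brightness filter through the knockout arrays alone, which favours a positive difference, so these values are a description. The 5′ probe of miR160d was bright on 2 knockout arrays and no wild-type array and was not tested. Among 3′ probes, that of miR160f had -5.58, -5.48 and -4.93 in knockout internodes and -6.27, -6.13 and -6.23 in wild-type internodes. This is a difference of 0.88 ± 0.19 without overlap (limma adjusted p = 0.0731). The 3′ probe of miR160b differed by 0.08, with a 95% interval of -0.40 to 0.56, and its genotypes overlapped. The sign of this last difference turned with array weights (-0.02) and without knockout replicate 1 (-0.10).

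miR393 regulates the auxin receptors, and its hairpins on chromosomes 1 and 4 gave differences of opposite sign. The 5′ probe of miR393 on chromosome 1 had -4.93, -4.72 and -4.53 in knockout internodes and -6.01, -6.11 and -5.91 in wild-type internodes. All knockout arrays were higher, by 1.29 ± 0.14 (95% interval 0.95 to 1.62; 2.44-fold), and the probe rose with a limma adjusted p of 0.0139. Neither the 3′ nor the mature probe of this hairpin was bright on any array. With normexp and quantile normalisation the rise of the 5′ probe was 0.54 and remained past the threshold.

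The probes of the miR393b hairpin on chromosome 4 did not pass the threshold. Its 3′ probe had -5.74, -5.40 and -5.47 in knockout internodes and -4.53, -4.93 and -4.63 in wild-type internodes, and its 5′ probe had -5.05, -4.93 and -4.93 in knockout internodes and -4.00, -4.55 and -4.22 in wild-type internodes. The genotypes did not overlap in either probe. The differences were -0.84 ± 0.16 (95% interval -1.22 to -0.45; limma adjusted p = 0.0514) and -0.71 ± 0.16 (limma adjusted p = 0.0837). The 3′ probe passed with quantile normalisation (limma adjusted p = 0.0483) and with the authors' value table (0.0484). The difference between the 2 hairpins' responses was not tested.

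miR167 is represented by 10 hairpins, and only 2 of them, miR167h and miR167i, could be tested. Both the 5′ and the 3′ probe of miR167h, on chromosome 12, fell. The 5′ probe had -5.51, -5.39 and -5.17 in knockout internodes and -4.06, -3.81 and -4.05 in wild-type internodes. The 3′ probe had -5.22, -5.28 and -5.09 in knockout internodes and -3.94, -3.72 and -3.98 in wild-type internodes. Every knockout array was more than 1 log2 unit below every wild-type array in both probes. The 5′ probe fell by 1.38 on the log2 scale (SE 0.14; 2.60-fold lower; limma adjusted p = 0.0116), and the 3′ probe fell by 1.32 (SE 0.12; 2.49-fold lower; limma adjusted p = 0.00857). With normexp and quantile normalisation these differences were -0.60 and -0.74, and both probes were still called. The mature probe of miR167h was not above background on any array.

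The miR167i hairpin on chromosome 6 gave differences of 0.31 ± 0.31 (5′) and 0.50 ± 0.27 (3′), with overlapping genotypes in both (limma adjusted p = 0.633 and 0.373). The 3′ probe of miR167b was bright on 1 knockout and 1 wild-type array and was not tested. The remaining 25 miR167 probes were bright on no array.

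Probes of miR164a, miR164b, miR164d and miR164f were tested, and none of these 8 probes was called, against 3.16% of all tested probes. At unadjusted p under 0.05 there were 4 of them, against 19.1% of all tested probes. The miR164c 3′ probe was bright on 1 knockout array and was not tested. The largest difference was that of the miR164a 5′ probe, with -5.66, -5.71 and -6.58 in knockout internodes and -5.03, -4.75 and -5.43 in wild-type internodes. The genotypes did not overlap, but the knockout arrays were widely spread and the difference was -0.91 ± 0.30 (95% interval -1.64 to -0.18; limma adjusted p = 0.180). The 3′ probe of the same hairpin differed by -0.21 ± 0.16 and overlapped. The miR164b 3′ probe had -4.75, -4.85 and -4.67 in knockout internodes and -5.30, -5.48 and -5.27 in wild-type internodes, a non-overlapping difference of 0.59 ± 0.12 (limma adjusted p = 0.0558). Both miR164d probes were lower in knockout internodes, by -0.53 ± 0.20 (5′) and -0.60 ± 0.24 (3′), with limma adjusted p = 0.223 and 0.245. miR164f differed by 0.37 ± 0.27 (5′) and 0.15 ± 0.21 (3′) with overlap in both.

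The sources used here do not say which stretch of a hairpin its 5′ and 3′ probes cover. Their differences had the same sign in all 9 hairpins in which both were tested, and both were called in miR167h alone. The signs matched in 7 of 9 hairpins without knockout replicate 1 and in 8 of 9 with array weights. Among probes bright on all 6 arrays, 7 hairpins had both probes tested, and the signs matched in these 7. The differences lay 0.06 to 0.83 log2 units apart. In the 5 miR160 hairpins with a tested 5′ and mature probe the signs also matched, with gaps of 0.39 to 0.73. The 5′ probes of miR160c and miR160e passed the brightness filter through the knockout arrays alone, which favours a positive difference. They were not above background on any wild-type array, so the signs and gaps of these hairpins are a description. The mature probe had the larger difference in miR160a, miR160b, miR160c and miR160e, and the 5′ probe in miR160f. Whether these gaps exceed their error was not tested.

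Some hairpins are annotated on the array to a cDNA-supported transcript that has probes of its own. These transcripts were picked out after their values were seen. The 5′ and 3′ probes of miR167h carry the identifier of a transcript of Os12g0604000. A UTR probe of cDNA AK067588 is annotated to the same transcript, although its name gives the locus Os12g0603900. That cDNA probe had -5.01, -5.13 and -4.51 in knockout internodes and -3.71, -3.56 and -3.76 in wild-type internodes. Its genotypes did not overlap, and it fell by 1.21 on the log2 scale (SE 0.19; limma adjusted p = 0.0290). The call ended with no filter on dim probes (limma adjusted p = 0.0518) and with the replicate number as a block (0.0779). It also ended without wild-type replicates 1, 2 and 3 in turn (0.117, 0.122 and 0.123) and without knockout replicate 2 (0.088). The probe of cDNA AK067077, whose name gives the locus Os12g0604000 itself, was bright on no array.

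For miR393b, the probe of cDNA AK060126 at Os04g0684100 had -3.84, -3.56 and -3.57 in knockout internodes and -2.83, -3.25 and -3.00 in wild-type internodes. It lay on the same side as the hairpin probes, with a difference of -0.63 ± 0.15 (limma adjusted p = 0.0981) and no overlap. A second probe there, of AK066367, differed by -0.27 ± 0.22. For miR160f the cDNA probe at Os08g0494200 had -4.84, -5.06 and -5.28 in knockout internodes and -5.42, -4.97 and -5.50 in wild-type internodes. Its genotypes overlapped and it differed by 0.23 ± 0.19 (limma adjusted p = 0.554), whereas the 5′ probe of the hairpin rose. For miR160b the cDNA probe of AK064503 at Os06g0676300 differed by -0.33 ± 0.25 (limma adjusted p = 0.532), opposite in sign to the hairpin's tested probes. It is annotated to another transcript of that locus than the hairpin's 5′ and 3′ probes. The probe of AK071620, annotated to the hairpin's transcript, was bright on 1 wild-type array only and was not tested. The hairpin's 3′ probe itself changed sign under some alternatives.

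The 30 listed genes of the target groups and of the small-RNA machinery had 52 tested probes, of which 1 was called, against 3.16% of all tested probes. Among the miR160 targets 3 of 4 loci were tested and 0 of 4 probes were called, with differences from -0.28 to 0.37; ARF10 had the largest (0.37 ± 0.15, limma adjusted p = 0.254). All 4 miR167 target loci were tested and 0 of 11 probes were called, with ARF6, ARF12, ARF17 and ARF25 between -0.12 and 0.23. The TAS3 branch targets ARF2, ARF3, ARF14 and ARF15 had 0 of 8 probes called, with differences from -0.27 to 0.33. At unadjusted p under 0.05 these lists held 1, 0 and 0 probes, against 19.1% of all tested probes.

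The called gene was the one listed as TIR1, an auxin receptor and miR393 target (Os05g0150500, chromosome 5). It had -3.49, -3.50 and -3.68 in knockout internodes and -4.56, -4.42 and -4.60 in wild-type internodes. The genotypes were well separated, and its single probe rose by 0.98 ± 0.11 (95% interval 0.70 to 1.25; 1.97-fold; limma adjusted p = 0.0170). With normexp and quantile normalisation its difference was 0.40 and missed the threshold (limma adjusted p = 0.0623). It also missed it without wild-type replicates 1, 2 and 3 in turn (0.0911, 0.0689 and 0.0992) and without knockout replicate 2 (0.0564). With the replicate number as a block its limma adjusted p was 0.0536. AFB2, the other listed receptor, had 3 probes at -0.15, -0.17 and -0.52, none called. Among the NAC targets of miR164, 3 of 6 loci were tested and 0 of 7 probes were called, against 3.16% of all tested probes. At unadjusted p under 0.05 there were 3 of the 7, against 19.1% of all tested probes. The OMTN6 probe with the larger difference had -0.20, -1.75 and -0.80 in knockout internodes and 0.27, 0.54 and 0.03 in wild-type internodes. This is a difference of -1.20 ± 0.39 (limma adjusted p = 0.178) in which knockout replicate 2 lay far below the other knockout arrays.

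No gene listed for the machinery that makes and uses these small RNAs was called, at a share of 3.16% over all tested probes. The microRNA pathway genes, among them the dicer DCL1, the methyltransferase HEN1 and the ARGONAUTE genes AGO1a to AGO1d, had 0 of 13 probes called and 0 at unadjusted p under 0.05 (19.1% of all tested probes), with differences from -0.16 to 0.33. The trans-acting small RNA genes had 0 of 5 probes called; the largest difference was that of SGS3, at 0.32 ± 0.12 (limma adjusted p = 0.230). AGO7, the partner of miR390, was bright on 1 knockout array only and was not tested.

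A higher signal of mature probes in knockout internodes was not limited to miR160. Of the 19 tested mature probes of other rice microRNAs 7 rose and 0 fell (36.8% rose), against 1.87% of all tested probes that rose. Several of these 19 share a family, among them those of miR166, miR399 and miR531, so they are not independent measurements either. The 6 miR160 mature probes had a median difference of 1.12 and a range of 0.98 to 1.26, and the other mature probes a median of 0.55 and a range of -0.74 to 1.19. Of all 84 tested probes of other microRNAs 15 rose (17.9%) and 2 fell, with a median of 0.12; the medians were 0.03 for their 5′ probes and 0.13 for their 3′ probes. Of 5 bright control probes printed by the design, which were left out of the comparison, 1 passed when fitted with the other probes (POsControl0021, limma adjusted p = 0.0124). It had -1.93, -2.33 and -2.27 on knockout arrays and -3.51, -3.83 and -3.86 on wild-type arrays, while the other 4 had limma adjusted p of 0.0802 to 0.424. The bearing of these control probes on the miR160 differences was not tested.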

How the data were processed

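Per the labels' protocols, total RNA of 6 rice internode samples, 3 per genotype, was labelled with Cy3 and hybridised to a 1-colour Agilent array. Per the submitters' processing notes the scanner images were read with Agilent Feature Extraction 12.0.3.1. The deposited scanner files hold spot intensity with the background subtracted, and other 0/1 flags, per the file headers. The deposited table of the authors holds the same intensity times 1 constant per array and served as an alternative.

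The log2 of the processed signal minus the array's 75th percentile was used. The design's 590 printed control spots and spots flagged as non-uniform (1 to 5 per array) were left out, spots of a probe were averaged, and a probe counted as bright where over 0.5 of its spots were well above background. Probes bright on all 3 arrays of a genotype and measured on at least 2 arrays of both entered limma 3.58.1 (R 4.3.3), with genotype as the one term, a two-sided moderated test and Benjamini-Hochberg adjustment over all 32134 of them. Of the members, 69 have a letter after the family number and 6 (miR390 and miR393) a bar. The members and gene lists were chosen with earlier results of these data known. The planned rule for named members took the called ones and, per family, the tested ones with the largest and smallest absolute difference. It also took members bright on all 3 arrays of 1 genotype and none of the other, and the other probes of called hairpins. Of listed genes it took the called ones and the tested probe with the largest absolute difference per list. Some further members and genes are named above, and some untested probes that the rule took are not. The reference table (assembly ASM3414082v1) holds 21 of the 30 listed names; the rest, TIR1, AFB2, DCL1, HEN1 and all OMTN names except OMTN2 among them, come from prior knowledge. No probe or microRNA sequences were used here. Scripts were tested on simulated data.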

Additional observations from a re-analysis of the deposited data

Results flagged for a closer look

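Signal also appeared in probes that no comparison used, the control probes that the array design prints among its gene spots. Of these 59 probes 5 could be tested, and for 3 the knockout arrays all lay above the wild-type arrays. Knockout minus wild-type on the log2 scale was 1.56 for POsControl0021, 0.54 for POsControl0001 and 0.31 for PZmControl0003. For POsControl0005 and POsControl0016 it was -0.52 and 0.35.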

How the results depend on the processing

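The main count was 9 called members (7 rose, 2 fell). It was 6 with normexp (offset 50) and quantile normalisation, 7 with no filter on dim probes, and 9 or 10 with quantile normalisation, the authors' table, the 75th percentile over bright probes, a stricter filter, outlier spots kept, population outliers also left out (an alternative chosen after seeing the data), limma-trend and array weights. At adjusted p under 0.10 it was 18 and under 0.01 it was 1. Leaving out each array gave 0 to 11 members, 136 to 1505 of all probes (main count 1016) and 0 to 1 target or pathway probes (main count 1). With the replicate number as a block (replicate block) the counts were 3 members, 458 probes and 0 target or pathway probes. With this block the 6 miR160 probes that had risen missed the threshold (limma adjusted p = 0.0568 to 0.102). The 3 members still called were both miR167h probes and the miR393 5′ probe. Deviations of same-numbered samples correlated at 0.409, -0.174 and 0.164, and those of other pairs at -0.487 to 0.349. Deviations cancel out within a genotype of 3 arrays, so these values cannot settle whether the numbers pair the samples. With no filter 645 probes were called, and with normexp 0 target or pathway probes. Among uncalled members, the difference of miR160b 3′ reversed with array weights (-0.02), and ranged from -0.10 (without knockout replicate 1) to 0.26 on leaving out each array; that of miR164f 3′ ranged from -0.03 (without knockout replicate 1) to 0.30; the cause was not tested. No called member reversed. Normexp was run on median spot signals, since mean ones, as planned, are not in the files. A block for slide could not be fitted, each slide carrying a single genotype.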
